A study of Rattus norvegicus with 6 samples.

Results

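The aminoacyl-tRNA synthetases were examined in rat neuronal progenitor cells given corticosterone. A gene belonged to the set when the platform annotation gave its symbol, or the older symbol without the final digit, to a probe set of the array. Of 35 genes named, 33 had a probe set, 19 for cytosolic and 14 for mitochondrial enzymes. They were measured by 51 of the 31099 probe sets on the array, and each gene had a probe set bright enough to test. Lars2 and Pars2 had no probe set by this rule and enter only the search of promoters.

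The treated group was exposed to 1 µM corticosterone, the main glucocorticoid of rodents, for 48 h, and the vehicle group to the solvent dimethyl sulfoxide for the same time. All cells were primary cultures from the cerebral cortex of rat embryos at day E15.5, grown on fibronectin with 20 ng/ml basic fibroblast growth factor, a mitogen. Each group had 3 RNA samples, 1 per array, and every corticosterone sample had a vehicle partner, which makes 3 couples. The sources used here do not give strain, sex or the number of embryos per culture. The comparison asks how the hormone changed the transcripts of these enzymes.

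Aminoacyl-tRNA synthetases join each amino acid to its transfer RNA, the step that gives the genetic code its meaning during translation. Cytosolic and mitochondrial translation mostly use enzymes from separate nuclear genes, marked here by a final 1 or 2, while Gars1 and Kars1 supply both compartments from a single gene. Several cytosolic enzymes are held together with scaffold proteins in the multisynthetase complex. Many cytosolic synthetase genes are targets of ATF4, a transcription factor made when amino acids run short, and mitochondrial synthetase genes as a group are not known for this.

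Markers of the labelled cell type were present: 8 of 8 neural progenitor genes on the array lay above the background signal of 22.8 on all 6 arrays. So did 8 of 8 neuron, 8 of 8 proliferation and 5 of 6 astrocyte markers. On single arrays 75.3% to 80.6% of all probe sets exceeded this background, so the count does not identify the cell type. The summed signal of the progenitor genes was 62256 to 69233 with corticosterone and 56299 to 68358 with vehicle. Of 7 known glucocorticoid-responsive genes 6 rose. Of 4 astrocyte markers tested 3 rose, with a summed signal over the 6 on the array of 28434 to 33161 with corticosterone and 15844 to 22306 with vehicle, and 1 of 8 neuron markers fell. Of 3 oligodendrocyte lineage markers tested 1 rose, Cldn11, and 1 fell, Pdgfra, with sums over 7 genes of 1217 to 2119 with corticosterone and 1559 to 4367 with vehicle. Of 4 meningeal and fibroblast markers tested 2 rose, with sums over 7 genes of 1387 to 5249 with corticosterone and 665 to 2781 with vehicle. Microglial markers summed to 320.1 to 397 with corticosterone and 248 to 301 with vehicle over 8 genes, of which Itgam lay at background on every array, and the 5 endothelial markers on the array were all too dim to test. Of 8 proliferation markers 0 passed in limma (unadjusted p under 0.05 in 2, both lower), with sums of 43073 to 49427 with corticosterone and 49494 to 51481 with vehicle. The part of these shifts in the results on synthetases was not tested. The median signal of an array was 124 to 134 with corticosterone and 108 to 122 with vehicle, and Actb probe sets, which report on RNA integrity, had 3′ over 5′ ratios of 1.76 to 2.03 with corticosterone and 1.55 to 2.12 with vehicle.

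Corticosterone lowered the transcripts of most cytosolic synthetases and of few mitochondrial ones. Of 19 cytosolic genes 14 fell, 0 rose and 5 did not pass (limma, Benjamini-Hochberg adjusted p under 0.05; by an unadjusted p under 0.05, 16 were lower and 1 higher). Of 14 mitochondrial genes 2 fell, 0 rose and 12 did not pass (by an unadjusted p under 0.05, 2 were lower and 1 higher). Among all 9914 genes tested on the same arrays 7.78% fell and 11.7% rose, so the share of cytosolic synthetases that fell, 73.7%, lay well above that background, and the mitochondrial share of 14.3% rests on 2 genes. The median log2 fold change was −0.30 over the cytosolic genes, 0.002 over the mitochondrial genes and −0.002 over all genes tested. The falls were moderate: among cytosolic genes that passed, the geometric mean signal of Eprs1 fell by 14.1%, the least, and that of Iars1 fell by 42.0%, the most. These are bulk samples, in which fewer cells of a type and less RNA per cell cannot be told apart.

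The pattern was present in every couple. The median log2 difference over the cytosolic genes was −0.23 in couple 1, −0.38 in couple 2 and −0.26 in couple 3, and over the mitochondrial genes it was −0.02, −0.09 and 0.001 in the same order. All 16 members that passed were lower in 3 of 3 couples, and the test favours genes whose couples move alike. On 14 cytosolic genes and 2 mitochondrial genes every corticosterone array lay below every vehicle array, which held for 11.4% of all genes tested. These 16 are not the same as the 16 that passed: the groups of Vars1 and Mars2 overlapped, while those of Rars1 and Rars2 did not overlap and did not pass. Without couple 2, 7 cytosolic and 0 mitochondrial genes passed in limma (by an unadjusted p under 0.05, 13 and 2 were lower), and in the model without the couple 5 and 0 passed (13 and 1 were lower by the same unadjusted p).

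**Figure D1:**
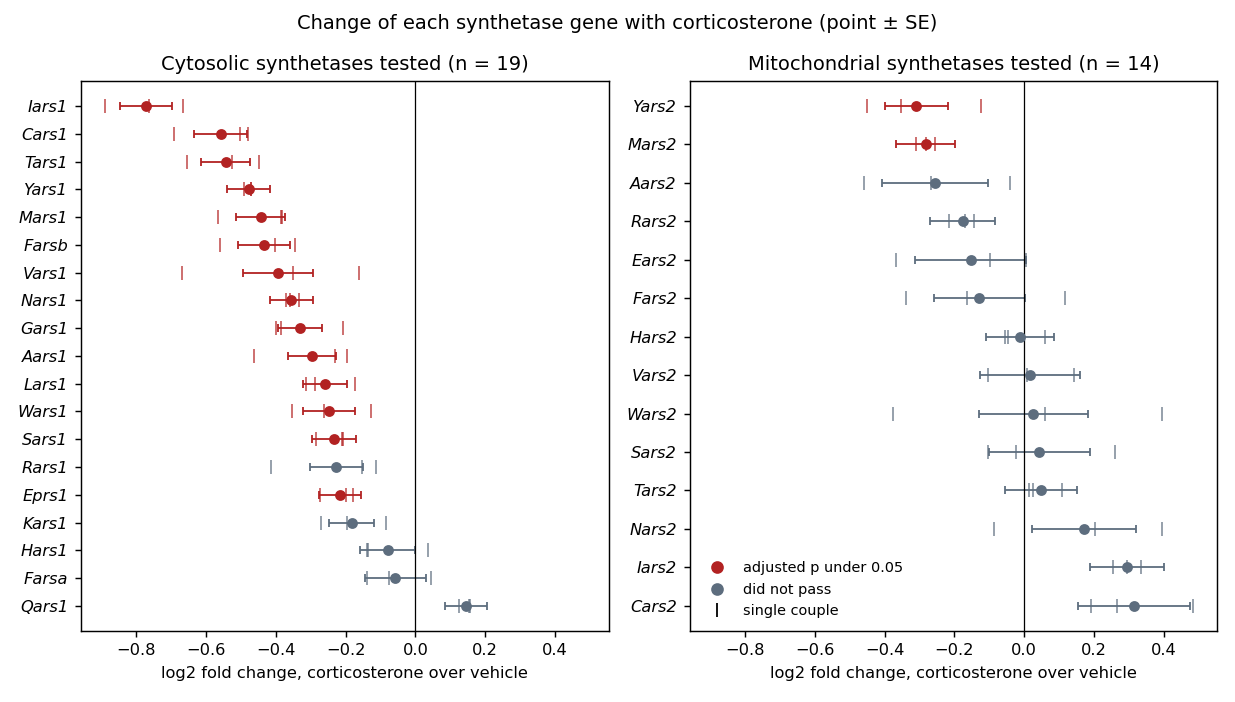
Log2 fold change, corticosterone over vehicle, of each synthetase gene tested (points, with bars for the SE of the limma fit on 3 couples; vertical ticks are the single couples). On the left 18 of 19 cytosolic genes lie below 0 and 14 passed; on the right the 14 mitochondrial genes are spread evenly around 0 and 2 passed.

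The steepest fall was that of Iars1, which charges transfer RNA with isoleucine and belongs to the multisynthetase complex. Its signals were 1254, 1238 and 1310.4 on the corticosterone arrays of couples 1, 2 and 3, against 2349, 1981 and 2243 on the vehicle arrays. The groups did not overlap, and the log2 fold change was −0.77 ± 0.07 (SE, n = 3 couples; limma adjusted p = 7.0e-05). A second probe set for Iars1, much dimmer, had 52.7, 109 and 73.5 with corticosterone and 120, 152 and 160 with vehicle and fell as well (−0.71, adjusted p = 0.022).

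Cars1, the cysteine enzyme, followed with 1271, 1159 and 1356 on the corticosterone arrays and 1811, 1892 and 1902 on the vehicle arrays. The fall of −0.56 ± 0.08 on the log2 scale (SE; limma adjusted p = 6.2e-04) was seen by 2 of its 3 further probe sets too (−0.52 and −0.50, adjusted p = 0.0020 and 0.0014), and the dimmest one lay at −0.44 without passing (0.098). Tars1 charges threonine and gave 1967, 1705 and 1862 with corticosterone against 2844, 2704 and 2550.3 with vehicle, a difference of −0.54 ± 0.07 on the log2 scale (adjusted p = 4.6e-04). Yars1, for tyrosine, was the most even of all across couples, with log2 differences of −0.47, −0.47 and −0.49. Its signals were 2565, 2594 and 2686 on the corticosterone arrays and 3569, 3605 and 3787 on the vehicle arrays (−0.48 ± 0.06, adjusted p = 4.6e-04). Iars1, Cars1, Tars1 and Yars1 passed under every alternative that was run on their main probe sets.

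**Figure D2:**
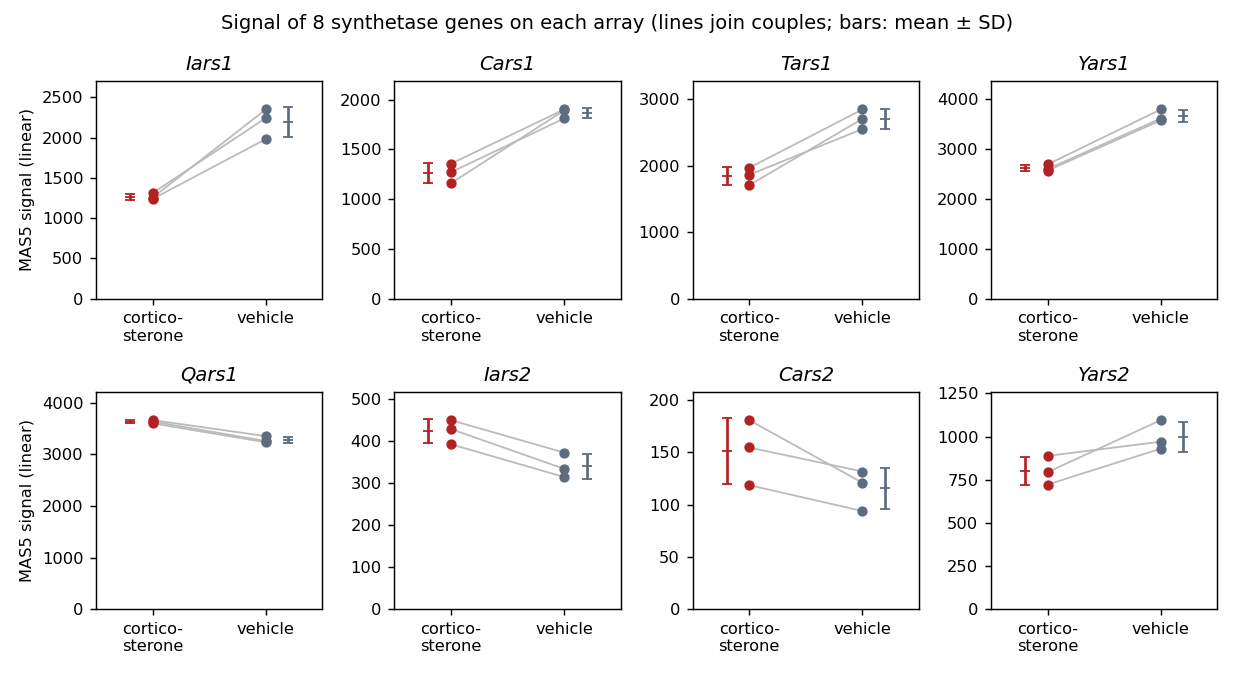
MAS5 signal of 8 synthetase genes on each array, on linear axes that start at 0, with corticosterone to the left of vehicle; lines join the arrays of a couple and the bars beside them show mean ± SD over 3 arrays. The corticosterone arrays lie below all vehicle arrays for Iars1, Cars1, Tars1, Yars1 and Yars2 and above them for Qars1 and Iars2, the last pair without passing the test.

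A further group fell by less: the geometric mean signal of Mars1 fell by 26.8% and that of Gars1 fell by 20.6%. Mars1, the methionine enzyme that charges the initiator transfer RNA as well, had 2017, 1957 and 2050.3 with corticosterone and 2636, 2911 and 2685 with vehicle (log2 fold change −0.44 ± 0.07, SE; limma adjusted p = 0.0015). Farsb, the beta subunit of the phenylalanine enzyme, had 1674, 1266 and 1436 against 2222, 1878 and 1829.9 in vehicle cells (−0.44 ± 0.07, adjusted p = 0.0025). Its partner Farsa, the alpha subunit, did not pass, at 721 ± 78.1 with corticosterone and 749 ± 55.0 with vehicle (SD, n = 3 each; −0.06, limma adjusted p = 0.72), and the difference between the subunits was not tested. Nars1, for asparagine, had 3246, 3045 and 2833 with corticosterone and 4210.2, 3844 and 3645 with vehicle (−0.36 ± 0.06, adjusted p = 0.0026). The glycine enzyme Gars1, which serves cytosol and mitochondria, gave 4432, 3859.7 and 4000.3 on the corticosterone arrays and 5123, 5047 and 5285 on the vehicle arrays (−0.33 ± 0.06, adjusted p = 0.0051). For these 4 genes that fell no corticosterone array reached the lowest vehicle array. Dimmer second probe sets did not pass for Mars1 (−0.32, adjusted p = 0.29), Farsb (−0.02, 0.95) or Gars1 (−0.27, 0.071). With the mean over probe sets Mars1 and Farsb did not pass (adjusted p = 0.056 and 0.087), and without couple 2 neither did Gars1 (0.071). Vars1, the valine enzyme, fell with overlapping groups: 752, 724 and 1148 with corticosterone, 968, 1166 and 1288 with vehicle (−0.39 ± 0.10, adjusted p = 0.022, and 0.21 without couple 2).

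The alanine, leucine, tryptophan, serine and glutamate-proline enzymes fell least among those that passed. Aars1 had 4074, 3600.3 and 4185 with corticosterone and 4780.0, 4969 and 4803 with vehicle (log2 fold change −0.30 ± 0.07, SE; limma adjusted p = 0.013). Lars1 encodes the leucine enzyme, which also senses leucine for the mTORC1 growth pathway, and had 3346, 3216 and 3272 against 4089.5, 4001 and 3695 in vehicle cells (−0.26 ± 0.06, adjusted p = 0.018). Wars1 had 1787, 1512 and 1710.3 with corticosterone and 1952, 1942 and 2057 with vehicle (−0.25 ± 0.07, adjusted p = 0.043). Sars1 was at 2942, 2596 and 2755 with corticosterone and at 3404, 3171 and 3191 with vehicle (−0.23 ± 0.06, adjusted p = 0.028). Eprs1, a single protein that carries the glutamate and the proline enzyme, had 3884, 4231 and 3687 on the corticosterone arrays and 4404, 4861 and 4462 on the vehicle arrays (−0.22 ± 0.06, adjusted p = 0.032). Every one of these 5 genes had its corticosterone arrays below its vehicle arrays. Whichever couple was left out, Eprs1 and Sars1 did not pass (adjusted p from 0.060 to 0.15 for Eprs1 and from 0.065 to 0.18 for Sars1), Lars1 and Wars1 each lost the call in 2 of these 3 fits, and Aars1 in that without couple 2. The 2 further tested probe sets of Eprs1 did not pass (−0.21 and −0.12, adjusted p = 0.054 and 0.45), nor did the second ones of Lars1 (0.16, 0.61) and Wars1 (−0.10, 0.61).

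Besides Farsa, the arginine, lysine, histidine and glutamine enzymes did not pass. Rars1 had 2591, 2043 and 2465 with corticosterone and 2884, 2734 and 2669 with vehicle (log2 fold change −0.23 ± 0.08, SE; limma adjusted p = 0.065). Kars1, the lysine enzyme of both compartments, had 4133, 3205 and 3392 against 4379, 3869 and 3888 in vehicle cells (−0.18 ± 0.06, adjusted p = 0.080). Hars1 averaged 1121 ± 127 with corticosterone and 1188 ± 169 with vehicle (SD, n = 3 each; −0.08, adjusted p = 0.55). Qars1, the glutamine enzyme, was the 1 cytosolic gene with a positive value. Its corticosterone arrays, at 3636, 3664 and 3601, lay above its vehicle arrays, at 3259.9, 3354 and 3235, a log2 fold change of 0.15 ± 0.06 that did not pass (adjusted p = 0.13, and 0.72 at 0.04 with each array centred on its median). Higher groups without overlap were found for 14.8% of all genes tested. Over all probe sets tested the median log2 fold change was −0.11 under this centring and −0.004 without it, and with it Kars1 and Rars1 passed as lower (adjusted p = 0.014 and 0.017).

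The cytosolic genes were divided by what is known of their control. General knowledge of mouse and human cells placed 13 of the 19 on a list of ATF4 targets. This list was made with earlier results of these data known, so the split only describes them. Of the 13 listed genes 13 fell, with a median log2 fold change of −0.36, against 7.78% of all genes tested that fell. Of the other 6, namely Farsa, Farsb, Hars1, Kars1, Qars1 and Rars1, 1 fell, the median was −0.13, and by an unadjusted p under 0.05 in limma 3 were lower and 1 higher. Without couple 2, 6 of the 13 targets and 1 of the other 6 fell, and in the model without the couple 5 and 0 (limma; 12 and 1 lower by an unadjusted p under 0.05 in either fit). The difference between these subsets was not tested. Of the same 19 genes, 4 of 7 enzymes of the multisynthetase complex fell (median −0.23) and 10 of 12 enzymes outside it (median −0.34).

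The short sequence that ATF4 and its C/EBP partners bind, TGATGNAA, was looked for on either strand in RefSeq promoters of rat assembly GRCr8, each spanning 250 bases before to 50 bases after a gene start. All 33 synthetase genes with a promoter in that table, 17 cytosolic and 16 mitochondrial, were searched. They include Lars2 and Pars2, which had no probe set, and leave out Gars1 and Rars1. The letters occurred in 7 of 17 cytosolic and 0 of 16 mitochondrial promoters, against 4.16% of the 27457 genes in the table. The 7 genes were all among the 12 searched genes of the ATF4 list described above and all fell. They included the 5 genes with the largest falls of the family. Of 10 cytosolic genes searched without a match 6 fell. Outside the family, of 163 other genes tested that hold a match 9.2% fell, against 7.92% of all genes tested with a promoter. A match is a description of the letters and not evidence of binding. The matches in those 5 genes are shown because these genes fell most. Each stands on the strand that reads TGATGNAA, in capitals, with up to 10 bases on either side (that of Yars1 meets the end of its promoter), in order of the fold change. All 5 read TGATGCAA.
Iars1, 24 bases before the start, chr17:15193659-15193686, plus strand: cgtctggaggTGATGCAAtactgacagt
Cars1, 17 bases after the start, chr1:208225335-208225362, plus strand: ttccagaatcTGATGCAAccgcggcgcc
Tars1, 27 bases before the start, chr2:62114812-62114839, plus strand: gctaaccagcTGATGCAAcgggacgcca
Yars1, 38 bases after the start, chr5:146820191-146820212, plus strand: cgagctcagcTGATGCAAcctg
Mars1, 17 bases before the start, chr7:65023753-65023780, plus strand: gagcccacgcTGATGCAAccggaacggg

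The whole promoters of 4 genes follow on the gene's own strand, those with the smallest adjusted p on either side of 0 in each compartment: Iars1, which fell, Qars1, which lay higher without passing, and the mitochondrial genes Yars2, which fell, and Iars2, which lay higher without passing. Capitals mark TGATGNAA on either strand, here as its reverse complement, and CACGTG, the E-box bound by the Myc family among others; the matches do not overlap each other. Only Iars1 holds either of them, and CACGTG was found in 7.08% of all genes in the table and in 5 of 17 cytosolic and 1 of 16 mitochondrial synthetase promoters. The palindromic consensus of the glucocorticoid response element was found in 0 of 33 synthetase promoters and in 2 of 27457 genes, which says only that these letters are not in these windows.
Iars1, chr17:15193603-15193902, minus strand: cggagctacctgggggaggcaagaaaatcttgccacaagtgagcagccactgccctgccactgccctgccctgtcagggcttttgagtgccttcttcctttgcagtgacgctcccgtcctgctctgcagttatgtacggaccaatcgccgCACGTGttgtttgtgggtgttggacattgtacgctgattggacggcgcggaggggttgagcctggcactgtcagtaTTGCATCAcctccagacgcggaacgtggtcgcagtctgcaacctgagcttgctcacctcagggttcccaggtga
Qars1, chr8:118085993-118086292, plus strand: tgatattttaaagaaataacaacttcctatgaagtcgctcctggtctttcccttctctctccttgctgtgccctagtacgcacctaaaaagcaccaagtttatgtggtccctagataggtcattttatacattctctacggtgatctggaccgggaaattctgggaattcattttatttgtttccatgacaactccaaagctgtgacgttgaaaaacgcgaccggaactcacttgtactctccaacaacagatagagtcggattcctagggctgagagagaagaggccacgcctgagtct
Yars2, chr11:98142243-98142542, minus strand: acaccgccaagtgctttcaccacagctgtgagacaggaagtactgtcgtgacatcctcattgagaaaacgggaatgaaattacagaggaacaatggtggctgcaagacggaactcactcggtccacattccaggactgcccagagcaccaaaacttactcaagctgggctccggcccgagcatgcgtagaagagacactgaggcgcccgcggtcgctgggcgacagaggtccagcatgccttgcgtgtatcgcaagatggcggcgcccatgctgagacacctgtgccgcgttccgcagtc
Iars2, chr13:99397019-99397318, minus strand: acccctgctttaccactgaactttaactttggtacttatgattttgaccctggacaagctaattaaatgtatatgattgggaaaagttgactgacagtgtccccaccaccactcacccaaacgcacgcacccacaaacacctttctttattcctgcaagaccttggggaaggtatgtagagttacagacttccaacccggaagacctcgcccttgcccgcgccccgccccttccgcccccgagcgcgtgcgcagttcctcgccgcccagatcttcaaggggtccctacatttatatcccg

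Among the mitochondrial enzymes the tyrosine and methionine genes fell. Yars2 had 794, 723 and 889 with corticosterone and 1096, 930.4 and 971 with vehicle, without overlap (log2 fold change −0.31 ± 0.09, SE; limma adjusted p = 0.040). Mars2 had 782, 605 and 681 against 939, 757 and 833 in vehicle cells, with overlap between groups but close differences of −0.26, −0.31 and −0.28 within couples (−0.28 ± 0.08, adjusted p = 0.044). Yars2 and Mars2 were the brightest of the 14, and both adjusted p-values lay close to the threshold. Neither passed without couple 1, without couple 2 or without the couple in the model.

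The largest positive values of the family belonged to mitochondrial genes as well, and none of them passed. Iars2, the mitochondrial isoleucine enzyme, had 449, 428 and 392 on the corticosterone arrays, all above the 372, 334 and 314 of the vehicle arrays (log2 fold change 0.29 ± 0.11, SE; limma adjusted p = 0.084). Cars2 had 180.5, 154 and 118 with corticosterone and 121, 131 and 93.8 with vehicle (0.31 ± 0.16, adjusted p = 0.22). Aars2, mutated in human mitochondrial disease of heart and white matter, had 136, 136 and 171 with corticosterone and 141, 197 and 212 with vehicle (−0.26 ± 0.15, adjusted p = 0.29). Cars2 was higher and Aars2 lower in each couple, with overlapping groups. Rars2 lay at 509 ± 4.89 with corticosterone and 579 ± 18.4 with vehicle (SD, n = 3 each), without overlap, and did not pass (−0.18, adjusted p = 0.24).

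The other 8 mitochondrial genes lay within −0.15 and 0.17 on the log2 scale. Ears2, whose product feeds the mitochondrial route to glutamine-charged transfer RNA, averaged 131 ± 15.6 with corticosterone and 148 ± 9.84 with vehicle (SD, n = 3 each). Tars2, Hars2, Vars2, Wars2 and Sars2 had log2 fold changes between −0.01 and 0.05. Nars2 differed more among the arrays of a group than between groups, at 203 ± 60.9 with corticosterone and 177 ± 52.6 with vehicle, and Fars2 was at 261 ± 13.0 with corticosterone and 289 ± 36.5 with vehicle. Precision differed between the compartments: the median SE of the log2 fold change was 0.14 for mitochondrial and 0.07 for cytosolic genes. The signals of the tested probe sets ran from 131 to 893 for mitochondrial and from 733 to 4590.1 for cytosolic genes, which is a property of different probes and not a comparison of transcript levels. Of all genes within the mitochondrial range of signals 5.39% fell, and of all genes at or above the dimmest cytosolic member 11.8%.

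The enzymes for the same amino acid in the 2 compartments can be set side by side in 15 pairs, in which Farsa and Farsb share the partner Fars2. The cytosolic log2 fold change was the lower one in 14 of 15 pairs, and in 9 pairs it was lower in 3 of 3 couples. The isoleucine enzymes were farthest apart, with −0.77 for Iars1 and 0.29 for Iars2, followed by cysteine with −0.56 for Cars1 and 0.31 for Cars2 and by threonine with −0.54 for Tars1 and 0.05 for Tars2. The alanine, arginine, histidine and glutamate enzymes were closest, with differences of −0.04 to −0.07 between Aars1 and Aars2, Rars1 and Rars2, Hars1 and Hars2, and Eprs1 and Ears2. For tyrosine and methionine both compartments fell, with −0.48 for Yars1 and −0.31 for Yars2, and with −0.44 for Mars1 and −0.28 for Mars2. Differences within pairs were not tested.

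**Figure D3:**
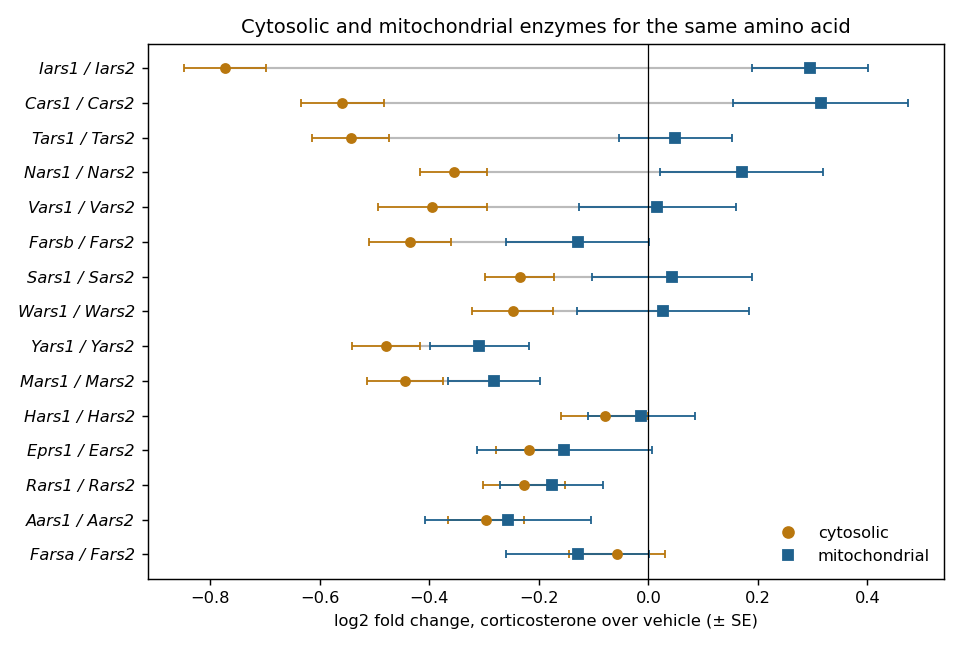
Log2 fold change, corticosterone over vehicle, of cytosolic (circles) and mitochondrial (squares) synthetases for the same amino acid, with the SE of the limma fit as bars and a grey line joining each pair. The cytosolic value is the lower one in 14 of 15 pairs, and the pairs are ordered from the widest gap, Iars1 and Iars2, at the top.

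The scaffold of the multisynthetase complex fell. Counts in this paragraph are to be read against 7.78% of all genes tested that fell and 11.7% that rose. All 3 of its non-enzyme proteins passed, 1 without couple 1 and 0 in the model without the couple (limma; 3 lower by an unadjusted p under 0.05): Eef1e1 at −0.48 ± 0.06 on the log2 scale (SE; limma adjusted p = 4.6e-04), Aimp1 at −0.34 (adjusted p = 0.0097) and Aimp2 at −0.31 (0.015). Aimp1 had 1622, 1539.6 and 1568 with corticosterone and 2240.0, 1825 and 1959.8 with vehicle, without overlap. The groups of Aimp2 did not overlap either. Those of Eef1e1 overlapped, at 3559, 2360 and 2613 with corticosterone and 4809, 3372 and 3697 with vehicle. Within couples the log2 differences of Eef1e1 were −0.43, −0.51 and −0.50. Of helpers of charging and proofreading 0 of 7 genes tested passed in limma (unadjusted p under 0.05 in 3, all lower), among them the mitochondrial glutamine amidotransferase subunits Qrsl1, Gatb and Gatc (−0.34, 0.24 and −0.04, adjusted p = 0.14, 0.46 and 0.80). On the list for selenocysteine charging 1 of 5 genes fell, Sephs1 (−0.32, adjusted p = 0.015), which did not pass without couple 1 or couple 2 (0.091 and 0.13). Whether Sephs1 acts in this route was not examined. The other 4 genes, Pstk, Sepsecs, Sephs2 and Eefsec, did not pass (0.17, −0.08, 0.01 and −0.10, limma adjusted p = 0.26, 0.68, 0.95 and 0.57).

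Some genes that make and modify transfer RNA fell, in shares to be read against 7.78% of all genes tested and 11.8% of those as bright as the cytosolic synthetases. Of 16 processing and export genes tested 2 fell and 0 rose (limma; by an unadjusted p under 0.05, 10 were lower), and the median was −0.20: Pop1 (−0.54, adjusted p = 0.014) and Rpp38 (−0.42, adjusted p = 0.019), protein subunits of ribonuclease P, which trims the 5′ end of precursor transfer RNA. Of 25 modification genes 6 fell and 0 rose (by an unadjusted p under 0.05, 11 were lower), and the median was −0.18. They were the methyltransferase genes Trmt61a (−0.50, adjusted p = 0.0026), Nsun2 (−0.36, 0.0046), Mettl1 (−0.35, 0.027) and Trmt10c (−0.31, 0.048), the queuosine enzyme Qtrt1 (−0.45, 0.011) and the pseudouridine synthase Pus1 (−0.41, 0.012). Of 18 genes for cytosolic initiation and elongation 3 fell and 0 rose (by an unadjusted p under 0.05, 5 were lower): Eif4ebp1, an inhibitor of cap-dependent initiation (−0.34, adjusted p = 0.0068), and the eIF2 subunits Eif2s2 and Eif2s1 (−0.22 and −0.21, adjusted p = 0.028 and 0.029). The elongation factors Eef1a1 and Eef2, which take charged transfer RNA to the ribosome and move it along, were at −0.01 and −0.003. On the list for mitochondrial translation 2 of 13 genes tested fell. They were Noa1 (−0.38, adjusted p = 0.026), a GTPase of mitochondrial ribosome assembly, and Tfb2m (−0.44, 0.027), a mitochondrial transcription factor and not a translation factor. The elongation factor Tufm was at −0.02. These counts moved with the settings. Without couple 2, 0 processing, 2 modification, 1 initiation or elongation gene and 1 gene of the mitochondrial list fell (limma, and 3, 8, 2 and 2 by an unadjusted p under 0.05). Without couple 1 they were 0, 3, 4 and 0 (6, 7, 6 and 3 unadjusted), and without couple 3 they were 4, 5, 1 and 0 (9, 9, 4 and 3 unadjusted). With each array centred on its median 10, 11, 7 and 2 fell.

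Outside the synthetases, ATF4 targets fell in large part. Counts in this paragraph are to be read against 7.78% of all genes tested that fell and 11.7% that rose. The list of targets was made with earlier results of these data known. Of 24 genes tested 13 fell, 2 rose and 9 did not pass, with a median log2 fold change of −0.32, and in the model without the couple 5 fell and 0 rose (limma; by an unadjusted p under 0.05, 13 were lower and 1 higher). Without couple 1 or couple 2, 9 and 8 fell and 0 rose (2 were higher by an unadjusted p under 0.05 in either fit). The cationic amino acid transporter Slc7a1 had 1728, 1527 and 2012 with corticosterone and 3130.0, 3528 and 3636 with vehicle (−0.96 ± 0.08, SE; limma adjusted p = 2.9e-05), and the asparagine synthetase Asns, a ligase of the free amino acid, had 1495, 1173 and 1199 against 2309, 1844 and 2069 in vehicle cells (−0.68 ± 0.07, adjusted p = 1.3e-04). The glutathione-degrading enzyme Chac1 fell by 0.80, the pseudokinase Trib3 by 0.64, the proline synthesis enzyme Aldh18a1 by 0.58 and the mitochondrial folate enzyme Mthfd2 by 0.55 on the log2 scale. Transcript of Atf4 itself was at 5882, 4251 and 4951 with corticosterone and at 8017, 6454 and 7101 with vehicle (−0.52 ± 0.06, adjusted p = 2.1e-04, and 0.087 in the model without the couple), and the groups did not overlap. The 2 that rose were the serine synthesis enzyme Phgdh (0.23, adjusted p = 0.030) and the glycine transporter Slc6a9 (0.33, 0.023). Of 6 kinases and regulators of the amino acid stress response, Eif2ak2, the kinase PKR, rose (0.50, adjusted p = 0.017) and Impact, an inhibitor of the amino acid sensor GCN2, fell (−0.30, 0.048). Neither passed without couple 1 (adjusted p = 0.065 and 0.30) or couple 2 (0.15 and 0.14), and Impact did not pass without couple 3 (0.064). Eif2ak4, which encodes GCN2, was at 623, 1019 and 619 with corticosterone and 1092, 799.7 and 717 with vehicle, with overlap (−0.22, adjusted p = 0.41).

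**Figure D4:**
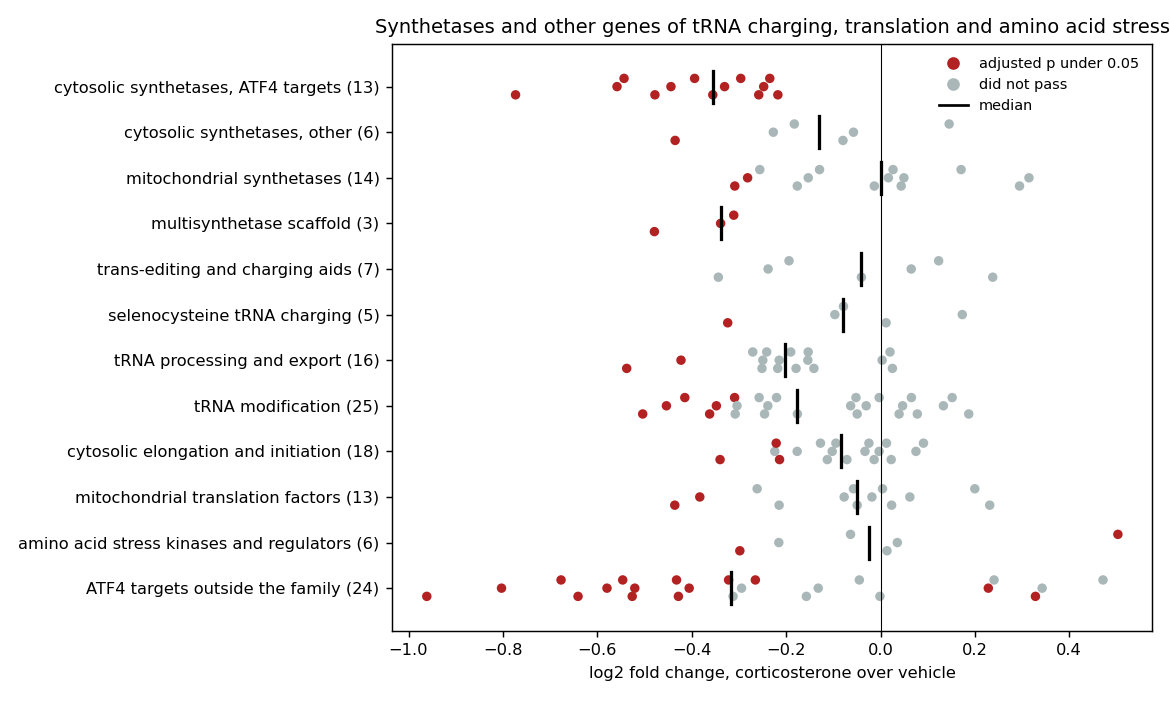
Log2 fold change, corticosterone over vehicle, of synthetases and of other genes of transfer RNA charging, translation and amino acid stress, 1 point per gene tested, red where the adjusted p was under 0.05, with black bars for the median and the number of genes in brackets. The 13 cytosolic genes listed as ATF4 targets are all red and left of 0 with a median of −0.36, and the mitochondrial synthetases centre on 0.002. The listed ATF4 targets outside the family have a median of −0.32. Both lists were made with earlier results of these data known.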

How the data were processed

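Each of 6 RNA samples was hybridised to 1 Affymetrix array, from 3 µg of total RNA amplified with an oligo(dT) primer, per the labels' protocols, which weights signals to the 3′ end. The deposited values are linear MAS5 intensity, 1 per probe set, per the submitters' processing notes, whose version and settings are not stated. The mean without the lowest and highest 2% was 500.2 on each array, so the authors' values are scaled to a common mean.

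Signals were transformed to log2(signal + 28.6), the pseudocount being the 25th percentile of all values, so log2 fold changes of dim genes are understated, whereas percentages of geometric means use signals as deposited. The dimmest 40% of probe sets and 57 controls were left out, leaving 18625, fitted with limma 3.58.1 in R 4.3.3 (intensity trend, treatment and couple as terms, two-sided, Benjamini-Hochberg over all 18625); the script was tested on simulated data. The background of 22.8 is the 95th percentile of 27 unspiked bacterial controls. One probe set, the brightest by mean log2 signal, stood for each of 9914 genes; 15 further member probe sets were tested and 3 were too dim. The probe set annotated Mars2 under 2 gene identifiers was kept as Mars2, and a probe set annotated with Ears2 and another gene was not used.

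The series design text couples the samples, and the titles give the numbers. Deviations from group means correlated by 0.57, 0.52 and 0.35 for samples of the same couple and by −0.48 to 0.003 otherwise. Deviations within a group cancel by construction, so positive values within couples push the others below 0 on average. The values between couples are therefore no separate evidence of the pairing. Nothing states that couples came from separate animals, so p-values measure only the spread between these couples, which may be technical. The number of arrays limits the precision.

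Members and gene lists, ATF4 targets included, were chosen with earlier results of these data known. Arrays are given in full for members that passed and for the 3 others per compartment with the largest absolute change; at most 6 genes that passed are named per list by size. Atf4, Phgdh, Slc6a9, Eif2ak4, Cldn11, Pdgfra and the listed genes that did not pass, as well as the short promoter windows, were chosen after their values were seen. Other promoter windows are not reported here. Alternatives covered the couple term, each couple left out, scaling, pseudocount, filter, trend and probe set.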

Additional observations from a re-analysis of the deposited data

How the results depend on the processing

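The couple term, the variance model and couple 2 moved the counts most. In the model without the replicate block 417 probe sets passed in all, with 5 cytosolic synthetases, 0 mitochondrial ones (limma; by an unadjusted p under 0.05, 1 higher and 1 lower) and 5 list genes, against 2953, 14, 2 and 34 with it. Without the intensity trend the numbers were 1262, 4, 0 (2 higher and 2 lower unadjusted) and 14. With 1 couple left out at a time they were 1192 to 2807, 7 to 11, 0 to 1 (0 without couple 1 or 2, where 1 and 2 were lower unadjusted) and 14 to 30. Without the filter 1862 probe sets and 0 mitochondrial synthetases passed (1 higher and 2 lower unadjusted), and 10 cytosolic ones. With the mean over the probe sets of a gene 9 cytosolic synthetases passed. Median centring gave 53 list genes, and 1246 probe sets higher and 2846 lower against 1751 and 1202. In no setting did a synthetase pass as higher, and the median over cytosolic genes stayed between −0.23 and −0.40. The pseudocounts and the stricter filter left the same 16 synthetases past. The cause of these shifts was not tested.

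Values that changed sign belonged to genes that had not passed and lay near 0, besides a dim second probe set of Lars1 (0.16). With median centring Tars2, Sars2, Wars2 and Vars2 turned to −0.057, −0.063, −0.080 and −0.090, and with quantile normalization Sars2, Wars2 and Vars2 to −0.045, −0.049 and −0.064. With 1 couple left out Sars2 ranged from −0.064 to 0.12, Wars2 from −0.16 to 0.23, Vars2 from −0.047 to 0.076 and Hars2 from −0.050 to 0.0075. Hars2 turned to 0.020 with the mean of its probe sets and 0.054 in its second probe set. Mitochondrial probe sets were dimmer and their SE larger.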

Other observations

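The synthetases fall into structural classes, class I with a Rossmann fold and class II with an antiparallel sheet at the active site. Corticosterone lowered 7 of 9 cytosolic class I genes (median log2 fold change −0.39) and 6 of 9 class II genes (median −0.30), with Eprs1, which holds both kinds of site, counted in neither. Of all genes tested 7.78% fell. Among mitochondrial genes 2 of 8 of class I fell and 0 of 6 of class II passed in limma (also 0 by an unadjusted p under 0.05), and the difference between classes was not tested. Further probe sets of members had a negative log2 fold change in 11 of 15 cases, all cytosolic, and 3 of the 15 passed, all as lower. The positive ones were those of Lars1 (0.16) and of the mitochondrial genes Tars2 (0.13), Wars2 (0.12) and Hars2 (0.05). Main probe sets of Tars2 and Wars2 were positive too, at 0.05 and 0.03. The E-box CACGTG occurred in the promoters of 5 cytosolic synthetases, which all fell, and 10.8% of the 869 other genes tested that hold it fell, against 7.92% of all genes tested with a promoter.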
